A study of Mus musculus with 4 samples.

Results

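The potassium channel genes described here were all genes whose symbol begins with Kcn followed by the letters of a pore-forming or auxiliary subunit family and a number, with antisense and overlapping transcripts left out. The rule found 90 genes among the 55422 gene IDs of the count tables, and it used no measured value. Their RNA was counted in nuclei of the hippocampus of adult mice, the brain region with the CA3, CA2 and CA1 fields of pyramidal neurons and the dentate gyrus. Control mice carried Kat6a-f/f, in which loxP sites flank Kat6a, the gene of a histone acetyltransferase. Kat6a-cKO mice carried the same floxed alleles together with NEX-cre, a Cre recombinase driven from the locus of Neurod6, which is active in excitatory neurons of the forebrain and not in inhibitory neurons or glia. Each genotype had 2 libraries, and the labels do not say whether a library was 1 animal or several pooled animals, so the spread between libraries may in part be technical. The comparison asked which potassium channel genes were expressed in which class of nuclei, and whether their RNA differed between the genotypes.

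Potassium channels let potassium leave the cell and so bring the membrane back to rest after an action potential, set the resting potential and limit how often a neuron fires. Voltage-gated Kv channels open on depolarization, and their subfamilies differ in speed and in place on the cell: Kv1 channels sit along the axon, Kv2 on the soma, Kv3 serves rapid firing, Kv4 with KChIP proteins carries the A-type current of dendrites, and Kv7 carries the slow M-current that muscarinic receptors shut. Calcium-activated BK and SK channels shape the afterhyperpolarization. Inward rectifiers include channels opened by G proteins in neurons and the Kir4.1 channel with which glia take up potassium. K2P channels, with a tandem pore domain, give the background leak.

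The 4 libraries held between 171323466 and 186897245 UMIs (unique molecular identifiers, each standing for 1 captured RNA molecule) in all barcodes, and between 7911 and 8442 barcodes had at least 5000 UMIs. Any pair of libraries shared between 15 and 20 of these barcodes. After removal of called doublets, 31465 nuclei were clustered with all potassium channel genes and their partner genes left out, and 24 of 40 clusters, holding 85.6% of the nuclei, were given a name from marker genes. The classes are therefore CA3-like, CA1-like and so on, and are called CA3, CA1 and so on from here. The mossy cluster, named from 4 of 7 markers, also had 6 of 9 CA3 markers raised. In the order Control 1, Control 2, Kat6a-cKO 1 and Kat6a-cKO 2, CA3 nuclei numbered 579, 703, 765 and 834, CA1 nuclei 1375, 1645, 1355 and 1671, and dentate granule nuclei 3407, 3176, 2977 and 2698. Free RNA was estimated to give from 9.36% to 13.0% of the UMIs of CA3 nuclei, up to 4.43% in CA1 and up to 19.6% in dentate granule nuclei. Kat6a itself stood at 63.2 and 65.8 CPM (UMIs of a gene scaled to a fixed total of UMIs in the class) in Control CA3 nuclei and at 59.9 and 65.4 in Kat6a-cKO. Counting was over whole genes, so the loss of an exon does not show in these values. RNA of the Cre gene was at 0 in both Control libraries and gave 40 and 57 UMIs in CA3 nuclei and 56 and 58 in CA1 nuclei of the Kat6a-cKO libraries, with 5 and 6 in dentate granule and 0 and 2 in inhibitory nuclei.

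Of the 90 genes, 55 reached a mean of at least 10 CPM in 1 or more of 14 classes, 75 reached at least 1 CPM and 15 stayed under 1 CPM in every class. Kcna3, Kcne3, Kcne4, Kcnj15 and Kcnmb1 had no UMI in any class of the Control libraries. For 40 of the 55 genes the class of highest level was the same in all 4 libraries. For 31 of the 55 even the lowest library of the highest class lay above every library of every other class. Dentate granule nuclei were the highest class for 11 genes, CA2, astrocytes, oligodendrocytes and oligodendrocyte precursors (OPC) for 5 each, CA1 for 3 and CA3 for 2. These are levels of 1 gene across classes, in CPM, and a pair of levels below is that of the 2 Control libraries unless another group is named. Levels of different genes are not compared, because nuclear RNA also holds introns and the genes run from 1.54 to 1135 kb in length, with a median of 32.0 kb over the 87 that match the annotation.

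**Figure D1:**
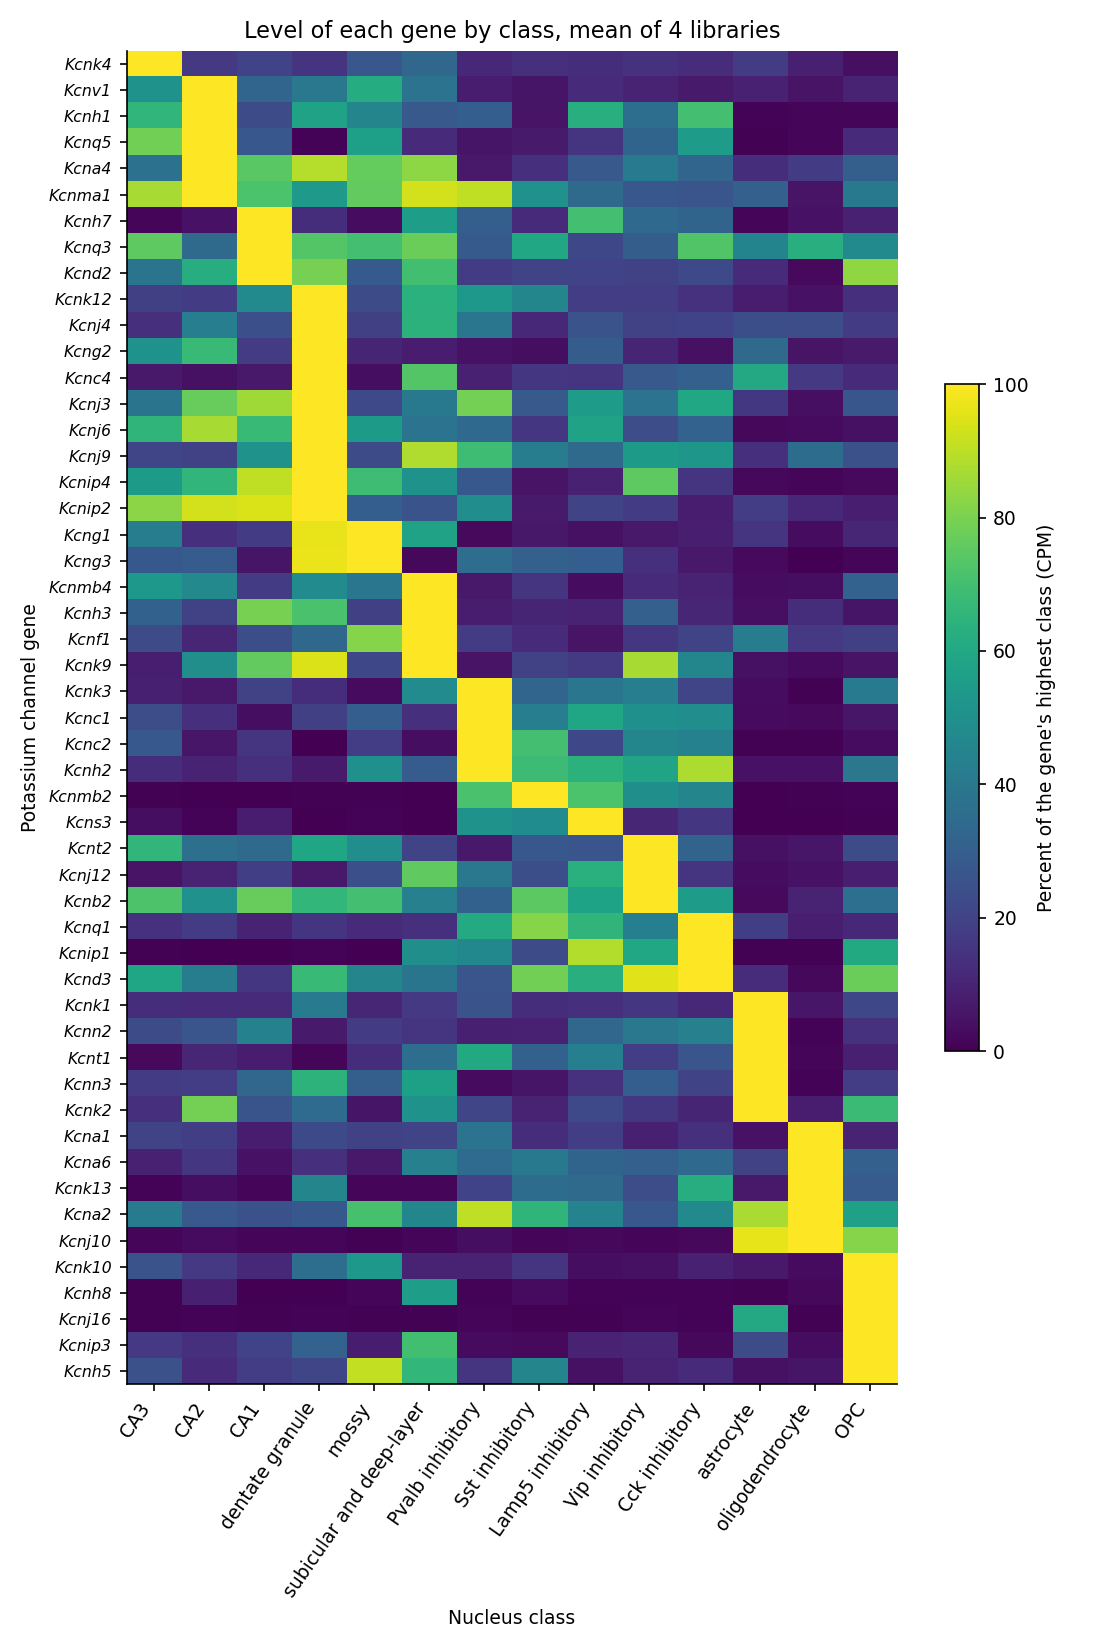
Heat map of 51 of the 55 potassium channel genes with a mean of at least 10 CPM in a class. Each row is a gene, each column a class, and the colour is the mean CPM of the 4 libraries as a percent of the class where that gene is highest. Kcnmb2, Kcns3 and Kcnc1 stand out in inhibitory classes, Kcnj10 in the 3 glial classes and Kcnh8 and Kcnj16 in OPC.

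Among the Kv7 genes, the subunits of the M-current, Kcnq5 varied most between the excitatory classes. It stood at 3914 and 4358 CPM in CA2 and at 3301 and 2876 CPM in CA3 nuclei of the Control libraries, against 1104 and 808 CPM in CA1 and 31.3 and 36.6 CPM in dentate granule nuclei. In Kat6a-cKO it stood at 3772 and 4125 CPM in CA2 and at 3336 and 3208 CPM in CA3. The CA2 and CA3 ranges did not overlap, nor did those of CA3 and CA1. Kcnq3 had its highest level in CA1, at 1379 and 1276 CPM in Control and at 1182 and 1271 in Kat6a-cKO, against 475 and 402 CPM in CA2 of Control.

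Kcnq5 also split the CA3 class, although no potassium channel gene had entered the clustering. In the largest CA3 cluster, led by the transcription factor Trps1, Kcnq5 stood at 3355 and 2902 CPM in Control and at 3184 and 3099.6 in Kat6a-cKO. In a smaller cluster Kcnq5 was itself the gene of largest fold over other nuclei, at 6056 and 6222 CPM in Control and at 6543 and 6088 in Kat6a-cKO. In the remaining cluster, led by Armc4, it stood at 420.5, 373, 606 and 469 CPM. The 3 ranges did not overlap. The last cluster had 5 of 9 CA3 markers raised, fewer than the other 2, and is called low-scoring below.

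The ERG channel gene Kcnh7 had another order of fields. It was at 2888 and 2123 CPM in CA1 nuclei of Control, and at 2128 and 2456 in Kat6a-cKO, the highest of all classes. It stood at 299 and 290.3 CPM in dentate granule, 119 and 80.1 CPM in CA2 and 28.7 and 41.0 CPM in CA3 nuclei of Control. Near-empty barcodes, which hold free RNA, carried 314 and 331 CPM of Kcnh7 in Control, and the estimated share of free RNA would give 29.4 and 43.1 CPM in CA3, as much as was counted there. In Kat6a-cKO the CA3 level was 57.5 and 48.0 CPM and the estimate 35.1 and 34.4 CPM. The largest CA3 cluster held 10.6 and 9.02 CPM in Control, less than the estimate, which is thus too high for that cluster. The cluster led by Armc4 held 119 and 162 CPM. These were 302 and 598 UMIs, against 121 and 107 UMIs in the largest CA3 cluster and 46 and 42 in the cluster led by Kcnq5. The part of free RNA in the CA3 level of Kcnh7 was not tested. Of its relatives, the EAG channel gene Kcnh1 was highest in CA2, at 379 and 492 CPM in Control, and the ELK channel gene Kcnh8 was highest in OPC, at 527 and 416 CPM, with 239 and 228 CPM in subicular and deep-layer nuclei and 1.49 and 1.66 CPM in CA1. Kcnh5 reached 291 and 330 CPM in mossy cells and 296 and 336 in OPC, which did not differ beyond the spread of libraries.

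The Kv4 channel gene Kcnd2, which carries the A-type current, was highest in CA1, at 6080.0 and 5178 CPM in Control against 2104 and 1993 CPM in CA3. The next highest class was OPC, from 4091 to 4650 CPM over the 4 libraries. Near-empty barcodes held on average 1098 CPM of Kcnd2. Between CA1 and CA3 its relative Kcnd3 ran the other way, at 91.8 and 105 CPM in CA1 and 415 and 368 CPM in CA3. Kcnd3 reached 688 and 626 CPM in Vip inhibitory nuclei, which overlapped with Cck nuclei. Among the KChIP genes, which encode calcium sensors bound to Kv4, Kcnip4 was highest in dentate granule nuclei, at 11705 and 12189 CPM, and close to that in CA1, at 11539 and 11451 CPM. Kcnip1 marked inhibitory classes, at 508 and 583 CPM in Lamp5 and 589 and 685 CPM in Cck nuclei, against 1.22 and 1.31 CPM in CA1. Kcnip4 stood at 450.0 and 1029.8 CPM in Sst inhibitory nuclei, where Kcnip1 stood at 135 and 156 CPM. Kcnip3 was highest in OPC, at 286 and 202 CPM, and next in subicular and deep-layer nuclei, at 154 and 137 CPM. Over all libraries these classes overlapped, with OPC from 132 to 286 CPM and subicular and deep-layer nuclei from 127 to 154 CPM. Kcnip2 stood at 95.1 and 101 CPM in dentate granule and 87.2 and 95.5 CPM in CA1 nuclei, which overlapped.

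The Kv3 genes Kcnc1 and Kcnc2, whose channels let fast-spiking interneurons fire rapidly, were highest in Pvalb inhibitory nuclei. Kcnc2 stood there at 4244 and 3987 CPM in Control and at 4577 and 4487 in Kat6a-cKO, above every library of every other class. It was next in Sst nuclei, at 2887 and 2986 CPM, and reached 1273 and 1267 CPM in CA3, against 15.3 and 17.9 CPM in dentate granule nuclei. Kcnc1 stood at 360.1 and 375 CPM in Pvalb nuclei and at 86.6 and 85.6 CPM in CA3. Kcnb2, of the Kv2 family, was highest in Vip nuclei, at 1309 and 1156 CPM.

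Silent Kv subunits form channels only together with Kv2 subunits. Of the 10 genes, 6 reached a mean of 10 CPM in a class, and of these Kcns3 and Kcng2 had a highest class that lay above every library of every other class. Kcns3 reached 356 and 317 CPM in Lamp5, 177 and 193 CPM in Pvalb and 184 and 150 CPM in Sst nuclei, and 0.785 and 0.902 CPM in dentate granule nuclei. Kcng2 was highest in dentate granule nuclei, at 85.4 and 84.7 CPM, and lower in CA2, at 55.4 and 56.2 CPM. Kcng3 was at 42.7 and 34.3 CPM in mossy cells and at 33.4 and 40.7 CPM in dentate granule nuclei, which overlapped, and at 1.87 and 2.42 CPM in CA1. Kcnv1, Kcng1 and Kcnf1 had means of 16.5, 16.4 and 10.8 CPM in their highest classes, which overlapped with the next.

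Auxiliary BK subunits were divided between excitatory and inhibitory nuclei. Kcnma1, the BK pore gene, was broad, from 2444 and 2555 CPM in CA2 to 689 and 649 CPM in Cck nuclei, the lowest neuronal mean, and 109.8 and 153 CPM in oligodendrocytes. Kcnmb2, whose product makes BK currents inactivate, stood at 1259.9 and 1091 CPM in Sst nuclei and at no less than 364 CPM in the 5 inhibitory classes of any library. The excitatory classes had between 0 and 7.16 CPM in Control and up to 22.1 CPM (mossy cells) in Kat6a-cKO. Kcnmb4, the neuronal subunit that slows BK gating, was highest in subicular and deep-layer nuclei, at 189 and 222 CPM, and reached 111 and 120 CPM in CA3. It was low in Pvalb nuclei, at 19.4 and 6.18 CPM.

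**Figure D2:**
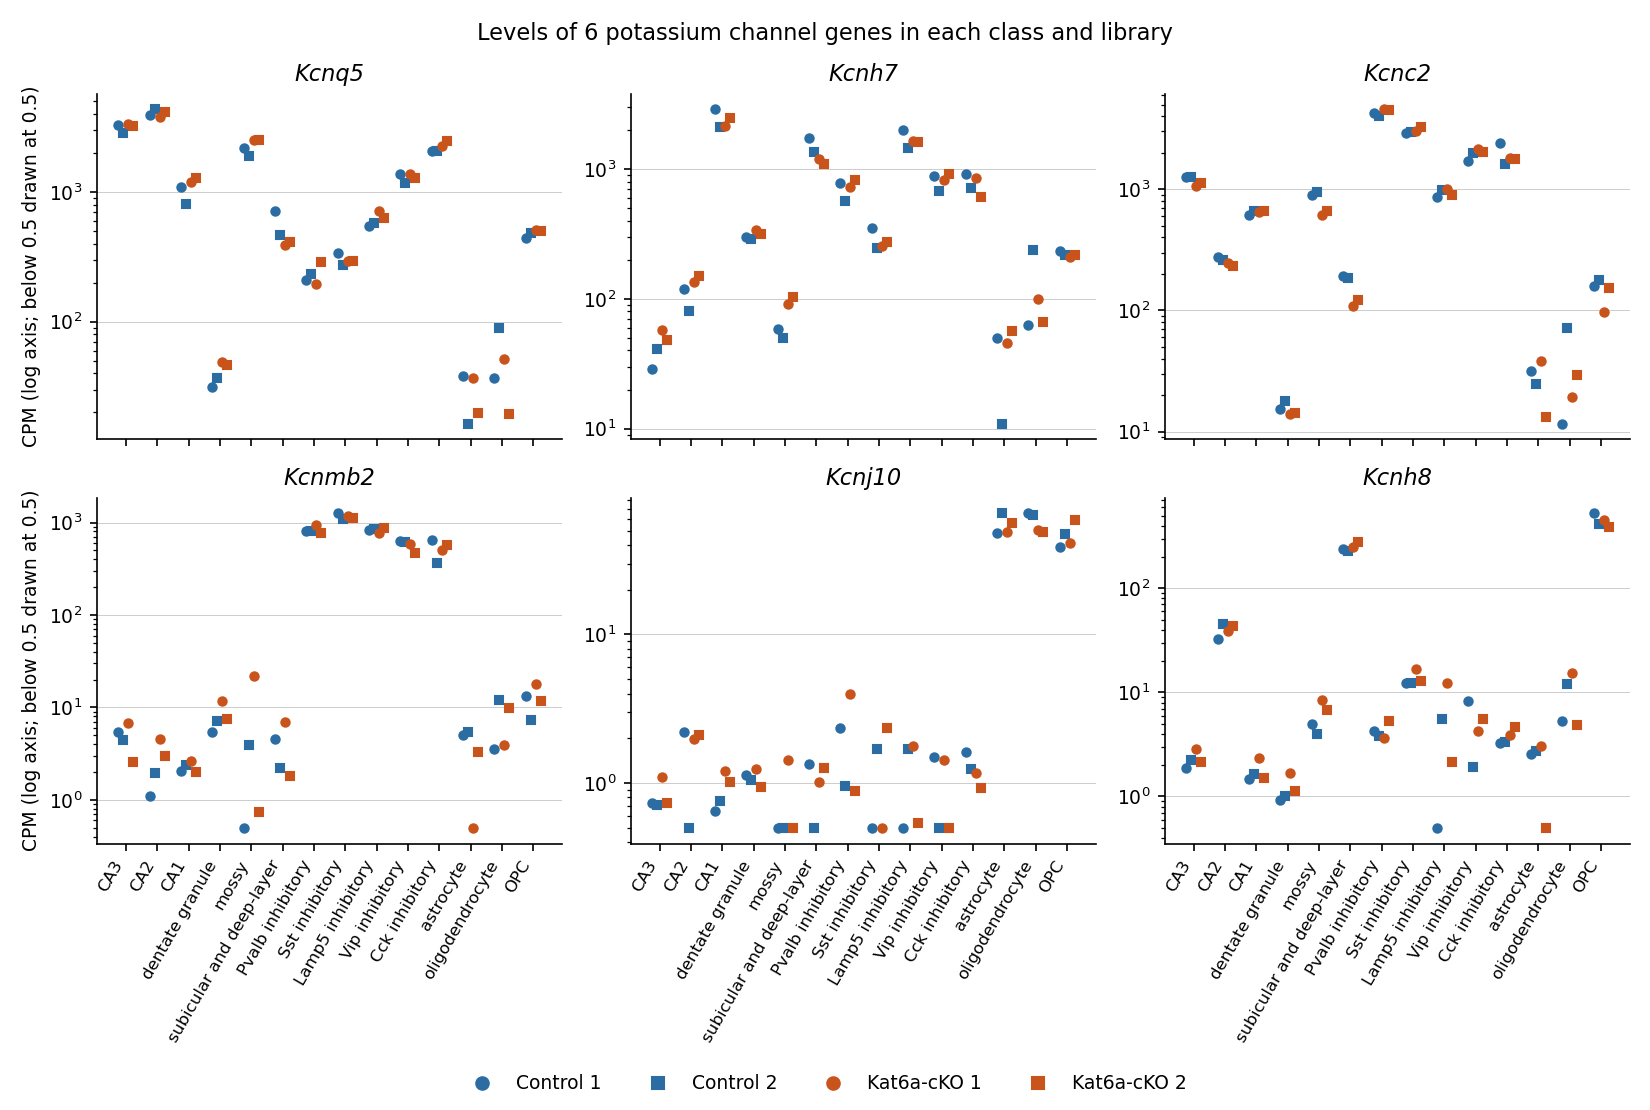
Levels of Kcnq5, Kcnh7, Kcnc2, Kcnmb2, Kcnj10 and Kcnh8 in 14 classes, 1 point per library, in CPM on a log axis with values under 0.5 drawn at 0.5. Among neurons Kcnq5 runs from 31.3 CPM in dentate granule nuclei to 4358 CPM in CA2, Kcnmb2 separates the 5 inhibitory classes from the rest, and Kcnj10 separates the 3 glial classes.

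Sodium-activated and SK channel genes also had clear high classes. Kcnt2 was highest in Vip nuclei, at 1087 and 979 CPM, and stood at 674 and 620 CPM in CA3. Kcnt1 stood at 91.7 and 106 CPM in astrocytes and 75.1 and 71.8 CPM in Pvalb nuclei. Kcnn2, the SK2 gene, was highest in astrocytes, at 1849.6 and 1928 CPM, against 736 and 787 CPM in CA1 and 128 and 129 CPM in dentate granule nuclei. The near-empty barcodes held on average 173 CPM of Kcnn2, less than each astrocyte library. Kcnn3, the SK3 gene, stood at 145 and 112 CPM in astrocytes and 76.1 and 88.4 CPM in dentate granule nuclei. Kcnn1 stayed at or below 5.45 CPM in every class of Control.

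Among the inward rectifiers, the subunits opened by G proteins were neuronal. Kcnj3 was highest in dentate granule nuclei, at 1422 and 1313 CPM, and stood at 496 and 554 CPM in CA3. Kcnj6 was also highest in dentate granule nuclei, at 808 and 758 CPM, and stood at 513 and 519 CPM in CA3. Kcnj9 was at 25.7 CPM in dentate granule nuclei of both Control libraries and at 4.65 and 6.14 CPM in CA3. Kcnj10, the gene of the glial Kir4.1 channel, stood at 48.4 and 65.3 CPM in astrocytes, 65.1 and 63.1 CPM in oligodendrocytes and 38.7 and 47.2 CPM in OPC, and at most 2.33 CPM in a neuronal class of Control. The 3 glial ranges overlapped, and the near-empty barcodes held on average 34.5 CPM. Kcnj16, whose product joins Kir4.1, stood at 49.2 and 59.3 CPM in OPC, 25.5 and 21.8 CPM in astrocytes and 0.892 and 0 CPM in oligodendrocytes.

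Other glial levels came from Kv1 and K2P genes. Kcna1, a Kv1 gene known from axons, was highest in oligodendrocyte nuclei, at 164 and 145 CPM, above Pvalb nuclei at 51.7 and 62.3 CPM. Kcna6 was also highest in oligodendrocytes, at 50.9 and 45.7 CPM. Kcna2 was at 57.1 and 63.1 CPM in oligodendrocytes and 44.7 and 53.7 CPM in Pvalb nuclei of Control, and these classes overlapped over the 4 libraries. Kcnk13 stood at 203 and 91.3 CPM in oligodendrocytes, a wide spread between libraries. The oligodendrocyte cluster, named from 7 of 7 markers, also had 4 of 7 microglia markers raised, and no microglia class was named. The part of microglial RNA in oligodendrocyte levels was not tested. Kcnk1, the TWIK1 gene, stood at 67.5 and 65.3 CPM in astrocytes against 28.8 and 29.0 CPM in dentate granule nuclei. Kcnk10, the TREK2 gene, was highest in OPC, at 265 and 232 CPM. The glial classes held few UMIs in all (from 301419 to 1137766 a library). By neuron markers the free RNA estimate ran from 90.5% to its cap of 100% of their UMIs. Low neuronal genes there were therefore not read as expression.

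No potassium channel gene passed an adjusted p of 0.05 between the genotypes in any of the 7 classes tested with edgeR's quasi-likelihood test and Benjamini-Hochberg adjustment over all genes. In CA3, 65 of the 90 genes passed the filter on low counts and 0 were called, where 0.0129% of all genes were called. In CA1 it was 0 of 66 (all genes 0.0729%), in dentate granule nuclei 0 of 69 (all genes 0.404%) and in inhibitory nuclei 0 of 60 (all genes 0.0272%). In astrocytes (24 tested), oligodendrocytes (22) and OPC (36) the count was also 0, with 0.0%, 0.0% and 0.0344% of all genes called. At an unadjusted p of 0.05 the counts were 8 in CA3 (12.3% of those tested, against 7.9% of all genes) and 8 in CA1 (12.1% against 8.6%). They were 13 in dentate granule (18.8% against 9.95%) and 6 in inhibitory nuclei (10.0% against 6.58%). Glial counts were 3 in astrocytes (12.5% against 4.88%), 1 in oligodendrocytes (4.55% against 5.6%) and 4 in OPC (11.1% against 7.3%). DESeq2 called 1 gene each in CA3 (Kcnh7, all genes 0.193%), CA1 (Kcnk2, all genes 0.717%) and dentate granule nuclei (Kcnq5, all genes 1.2%). It called 0 in inhibitory nuclei (all genes 0.0815%), astrocytes (0.0%), oligodendrocytes (0.0%) and OPC (0.0115%).

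The members' changes went in both directions. The median log2 fold change, Kat6a-cKO over Control, was 0.03 over the potassium channel genes tested in CA3, 0.04 in CA1, -0.004 in dentate granule and 0.02 in inhibitory nuclei, where the medians over all genes were -0.005, -0.004, 0.003 and 0.001. It was 0.09 in astrocytes, -0.29 in oligodendrocytes and 0.14 in OPC, with medians over all genes of -0.008, -0.0001 and 0.006. Regardless of direction, the median size of the log2 fold change reached 0.15 in CA1, against 0.10 in CA3 and dentate granule and 0.11 in inhibitory nuclei, and was 0.20 in astrocytes, 0.35 in oligodendrocytes and 0.19 in OPC, where the median SE was 0.33, 0.37 and 0.20. The 2 Kat6a-cKO libraries lay wholly above or below the 2 Control libraries for 24 of 65 genes in CA3 (36.9%, against 37.6% of all genes), 28 of 66 in CA1 (42.4% against 38.8%), 29 of 69 in dentate granule (42.0% against 40.1%) and 23 of 60 in inhibitory nuclei (38.3% against 36.0%). In astrocytes it was 10 of 24 (all genes 33.7%), in oligodendrocytes 7 of 22 (34.7%) and in OPC 11 of 36 (37.2%). The shares in the 4 neuronal classes are near those of all genes. Among the 28 genes with a mean of at least 20 CPM in CA3, changes ran from -0.23 to 0.61 with standard errors (SE) from 0.07 to 0.20. Over 29 such genes in CA1, changes ran from -0.43 to 0.39.

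**Figure D3:**
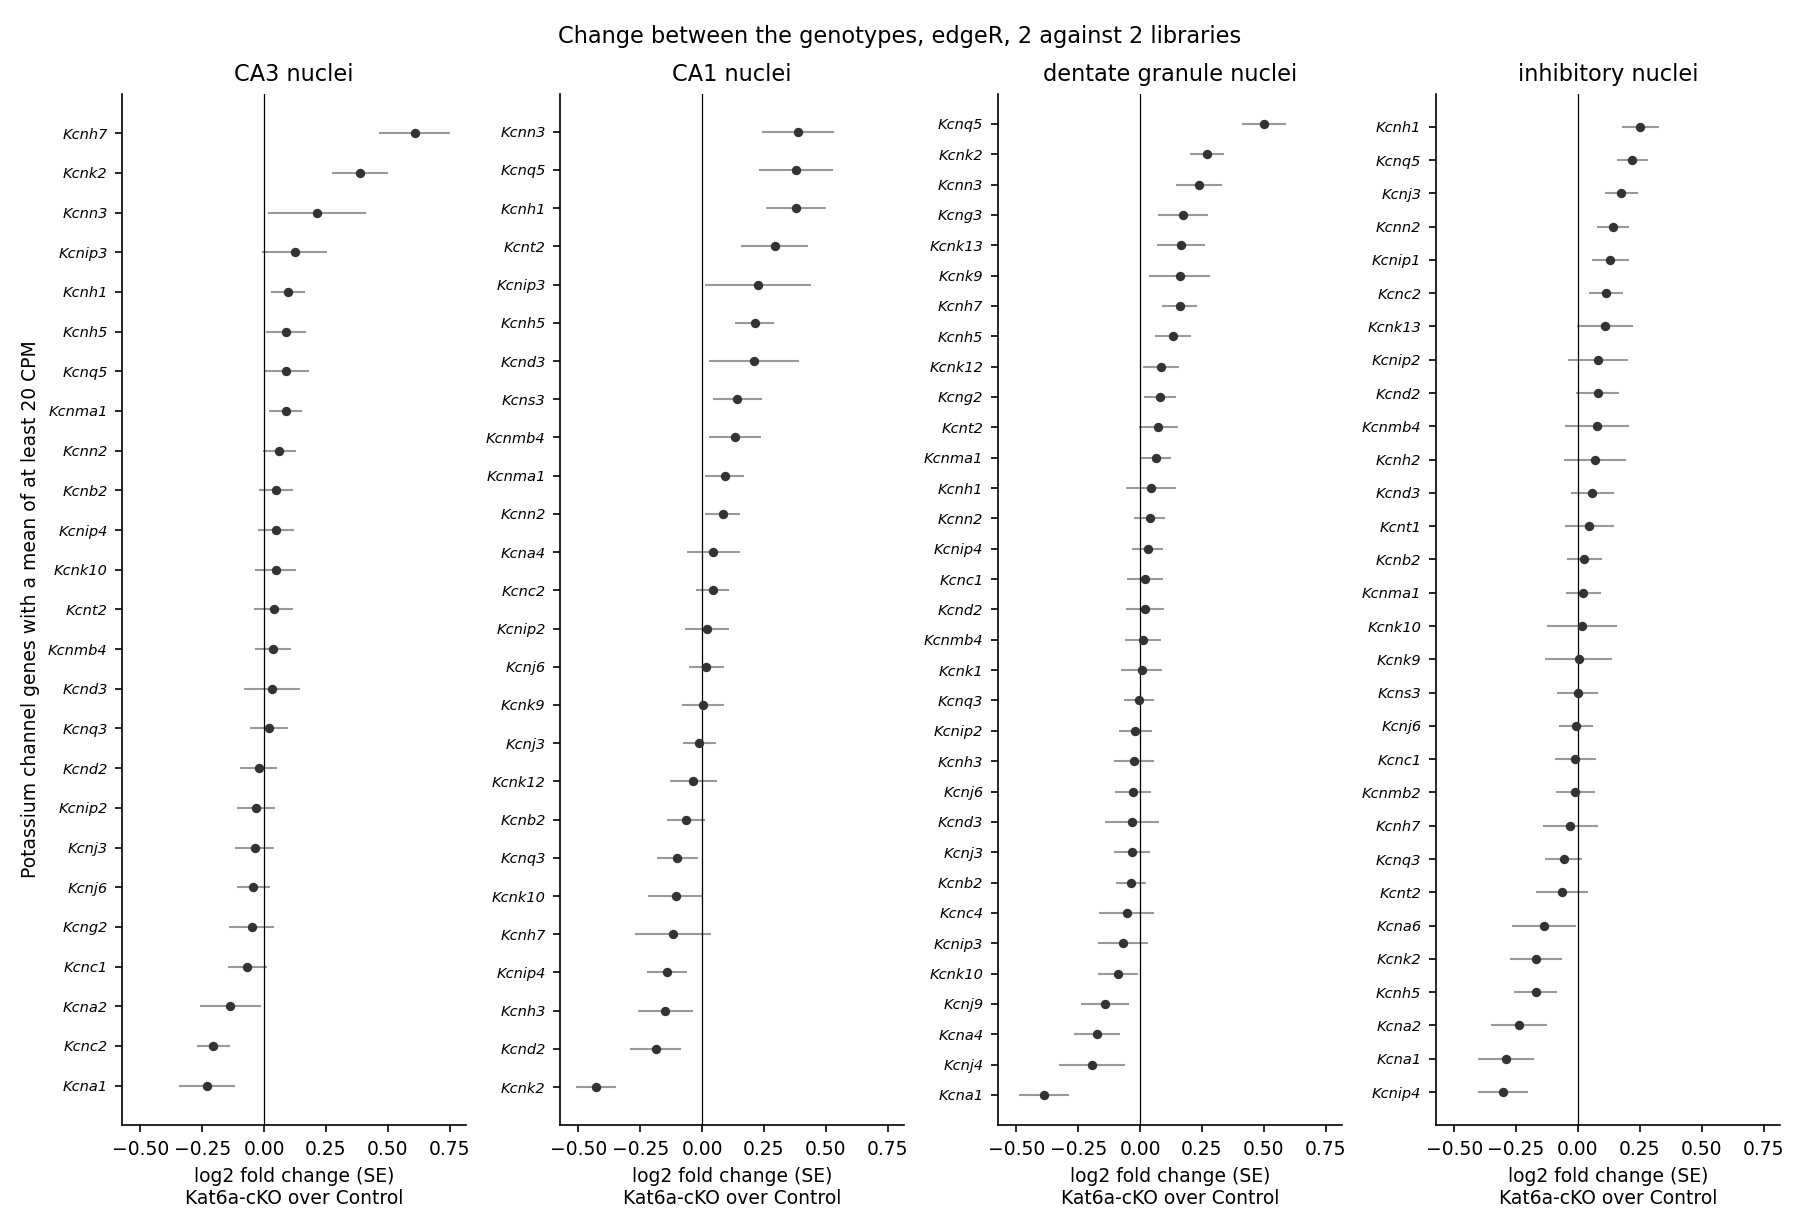
Log2 fold change with SE of the potassium channel genes reported here with a mean of at least 20 CPM in CA3, CA1, dentate granule and inhibitory nuclei, Kat6a-cKO over Control, 2 against 2 libraries. Most points lie near 0. Kcnk2 lies at -0.43 in CA1 and at 0.27 in dentate granule nuclei, and Kcnq5 at 0.50 in dentate granule nuclei, none past the adjusted threshold by edgeR, while DESeq2 called Kcnk2 in CA1 and Kcnq5 in dentate granule nuclei.

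Changes were also compared between CA3, CA1 and dentate granule nuclei, and Kcnk2 was the only potassium channel gene whose change differed past the adjusted threshold. Between CA3 and CA1 it was 0 of 65 genes (all genes 0.0416%). Between CA3 and dentate granule nuclei it was 0 of 68 (0.0743%), and between CA1 and dentate granule nuclei 1 of 70 (0.0394%). At an unadjusted p of 0.05 the counts, in this order, were 15, 6 and 11. These were 23.1%, 8.82% and 15.7% of the members tested, against 6.23%, 5.52% and 6.64% of all genes. Kcnk2 encodes TREK1, a K2P leak channel that opens to membrane stretch, warmth and lipids. The gene lies at chr1:189207930-189402273 on the minus strand (GRCm38, GENCODE M21). It is overlapped by 4 other genes, 2 of them on the same strand, whose reads cannot be told apart from those of Kcnk2. In CA1 nuclei Kcnk2 stood at 72.6 and 69.0 CPM (after TMM scaling, as in all comparisons of genotypes below, where a first pair of values is Control and a second Kat6a-cKO) in Control and at 50.4 and 54.8 CPM in Kat6a-cKO, from 1190 to 2052 UMIs a library. The 2 Kat6a-cKO values were the lowest of the 4, with a log2 fold change of -0.43 ± 0.08 (SE, 2 against 2 libraries) and an edgeR adjusted p of 0.19. In dentate granule nuclei it stood at 76.0 and 74.4 CPM in Control against 93.5 and 87.9 in Kat6a-cKO, both above Control, with a log2 fold change of 0.27 ± 0.07 and an edgeR adjusted p of 0.16. The difference of the changes, CA1 minus dentate granule, was -0.72 ± 0.08 with an edgeR adjusted p of 0.028 for the interaction of class and genotype. Over 7 other settings on the same libraries the difference ran from -0.84 without library 2 of Kat6a-cKO to -0.61 without library 1 of Kat6a-cKO. Fits without 1 library are given here by size only. The settings that kept all 4 libraries had low genes kept, a minimum of 10000 UMIs or no low-scoring CA1 cluster (described below). The difference passed the threshold in each of them. Those settings called 1.11%, 0.0858% and 0.284% of all genes, more than the 0.0394% here. The interaction was not fitted with DESeq2, with other size factors or with free RNA subtracted.

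In CA3 nuclei Kcnk2 stood at 26.9 and 30.5 CPM in Control against 40.9 and 34.5 in Kat6a-cKO, a log2 fold change of 0.39 ± 0.11 with an edgeR adjusted p of 0.42. In plain CPM it stood at 45.8 and 51.6 against 87.0 and 60.0 in the low-scoring CA3 cluster. In the largest CA3 cluster it stood at 26.0 and 26.3 against 29.6 and 31.9 CPM. In the cluster led by Kcnq5 the genotypes overlapped, at 7.84 and 25.4 against 26.4 and 21.8 CPM. The difference of changes between CA3 and CA1 was 0.80 ± 0.12 and missed the threshold, with an edgeR adjusted p of 0.062. It passed without the low-scoring clusters (0.70, edgeR adjusted p = 5.03e-04), and without library 2 of Control or either library of Kat6a-cKO. The difference between CA3 and dentate granule nuclei was 0.10 with an edgeR adjusted p of 0.96. In inhibitory nuclei, where NEX-cre is not active, Kcnk2 stood at 37.3 and 41.5 CPM in Control against 33.4 and 36.7 in Kat6a-cKO, with a log2 fold change of -0.17 ± 0.11 and an edgeR adjusted p of 0.83.

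**Figure D4:**
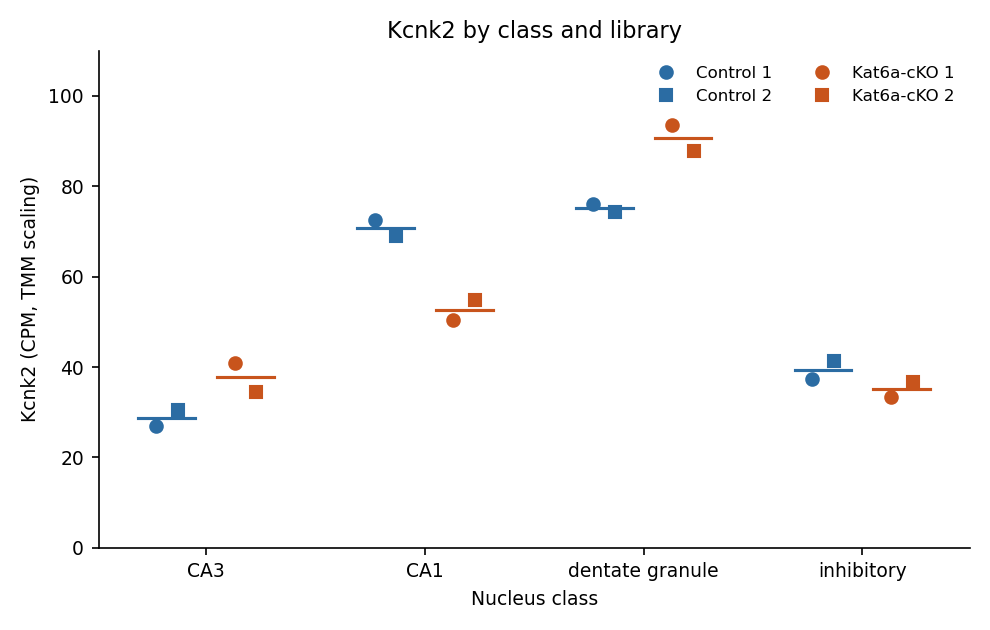
Kcnk2 in CPM after TMM scaling, by class and library, with bars at the mean of each genotype. The Kat6a-cKO points lie below Control in CA1 (50.4 and 54.8 against 72.6 and 69.0 CPM) and above it in dentate granule nuclei (93.5 and 87.9 against 76.0 and 74.4 CPM).

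The CA1 and dentate granule directions of Kcnk2 were seen in most of their clusters. In the CA1 cluster led by 4921539H07Rik it stood at 87.0 and 87.1 CPM in Control against 54.4 and 61.5 in Kat6a-cKO. In the cluster led by Gm30382 it stood at 51.0 and 48.7 against 28.9 and 31.1 CPM, and in that led by B230110G15Rik at 79.0 and 78.9 against 67.2 and 70.8 CPM. In the low-scoring CA1 cluster led by Gm12128 the genotypes overlapped, with 60.7 and 59.8 against 48.2 and 62.9 CPM. The largest unnamed cluster, led by Dcn, had 4 of 7 CA1 markers raised and is outside the CA1 class. Kcnk2 stood there at 39.9 and 46.0 against 33.9 and 26.1 CPM. In the 3 large dentate granule clusters it stood at 86.2 and 98.0 against 105 and 104.5 CPM, 53.6 and 53.4 against 66.1 and 67.1 CPM, and 81.5 and 77.4 against 100.6 and 92.3 CPM. All 3 had both Kat6a-cKO libraries above both Control libraries. A smaller one, led by Mir670hg and with 13 to 24 nuclei a library, held from 1 to 3 UMIs of Kcnk2 a library, at 9.48 and 7.98 against 6.07 and 5.77 CPM. CA2 nuclei, with 160.4 and 164.4 CPM in Control against 241 and 183 in Kat6a-cKO, were on the side of dentate granule nuclei and were not tested.

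**Figure D5:**
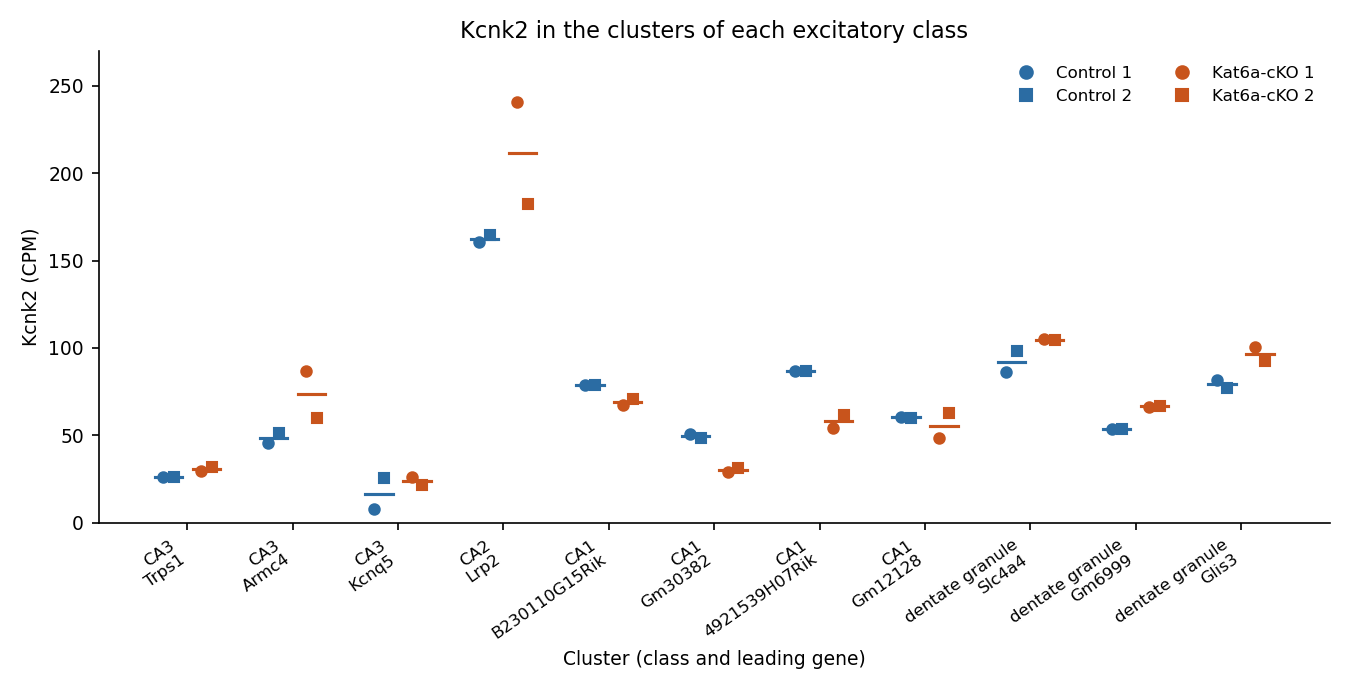
Kcnk2 in plain CPM in the clusters of the CA3, CA2, CA1 and dentate granule classes with at least 50 nuclei in each library, 1 point per library and a bar at the mean of each genotype. Both Kat6a-cKO points lie below Control in 3 of 4 CA1 clusters and above it in the 3 dentate granule clusters of this size.

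The make-up of the CA1 class differed between libraries. The cluster led by Gm12128 held 16.8% of CA1 nuclei in library 1 of Kat6a-cKO and from 6.98% to 7.78% in the other 3, and the cluster led by 4921539H07Rik held 32.4% and 29.7% in Control against 19.9% and 24.5% in Kat6a-cKO. Without the Gm12128 cluster the Kcnk2 change in CA1 was -0.45, and the difference from dentate granule nuclei -0.75. Free RNA would add from 1.24 to 1.88 CPM of Kcnk2 to CA1 and from 5.18 to 8.31 CPM to dentate granule nuclei. Astrocytes have the highest mean Kcnk2 level, overlapping with CA2. The 8 astrocyte markers summed to between 87.0 and 91.6 CPM in CA1 nuclei of Control and between 99.8 and 110.1 in Kat6a-cKO. None of them was at 0 there. In dentate granule nuclei they summed to between 217 and 241 CPM in Control and between 213 and 215 in Kat6a-cKO. The 8 dentate granule markers summed to between 475 and 528 CPM in CA1 nuclei of Control and between 564 and 568 in Kat6a-cKO. Astrocyte and dentate granule markers in CA1 thus moved opposite to Kcnk2 there, and their part in the result was not tested. The share of mitochondrial UMIs was lower in both Kat6a-cKO libraries in both classes, at 0.0679% and 0.0797% against 0.0651% and 0.0509% in CA1 and at 0.146% and 0.165% against 0.139% and 0.121% in dentate granule nuclei, and its part was not tested either.

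Across the 14 classes and 4 libraries, Kcnk2 was highest in astrocytes, at 236 CPM on average with a range from 193 to 305 CPM. CA2 followed at 187 CPM (160.4 to 241) and OPC at 160.6 CPM (149 to 172). CA2 overlapped with astrocytes and with OPC, while astrocytes and OPC did not overlap. Subicular and deep-layer nuclei (110.1 to 131 CPM), dentate granule nuclei (74.9 to 92.1) and CA1 nuclei (49.6 to 71.4) each lay apart from their neighbours above. From CA1 down, neighbours overlapped, through CA3 at 33.2 CPM to mossy cells at 13.4 CPM.

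RefSeq lists 4 start sites for Kcnk2, and counts over the whole gene do not tell which of them a nucleus used. Sequences of 250 bases before a start are shown for 2 of them, the far upstream one and 1 of the pair with dense CpG, to show how unlike they are. They are from RefSeq (GRCm38.p6), minus strand, 5′ to 3′, with each CG in capitals. The first is chr1:189402274-189402523 and the second chr1:189343708-189343957.
Kcnk2 upstream start: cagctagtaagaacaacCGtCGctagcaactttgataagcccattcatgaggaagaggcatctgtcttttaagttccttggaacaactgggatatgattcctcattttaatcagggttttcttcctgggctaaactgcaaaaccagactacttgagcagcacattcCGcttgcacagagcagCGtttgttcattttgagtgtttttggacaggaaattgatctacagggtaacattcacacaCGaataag
Kcnk2 downstream start: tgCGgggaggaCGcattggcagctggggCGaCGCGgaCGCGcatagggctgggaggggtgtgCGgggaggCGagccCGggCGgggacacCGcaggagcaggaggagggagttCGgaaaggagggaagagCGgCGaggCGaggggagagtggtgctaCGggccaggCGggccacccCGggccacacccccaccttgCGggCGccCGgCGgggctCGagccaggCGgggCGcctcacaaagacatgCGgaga
The upstream window holds 5 CG and the downstream window 27, where the median of 32851 windows of this length before RefSeq starts was 6. The other 2 starts had 2 and 28. The motif TATAAA, on either strand, was in 0 of the 4 windows and in 12.4% of all windows, which describes these letters only.

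Kcnq5 had the smallest adjusted p of any potassium channel gene within a class. In dentate granule nuclei it stood at 31.8 and 35.8 CPM in Control against 49.7 and 45.8 in Kat6a-cKO, a log2 fold change of 0.50 ± 0.09 with an edgeR adjusted p of 0.054. It passed the threshold in 7 of 12 other fits, among them DESeq2 (adjusted p = 0.00145), and missed it without library 1 of Control (edgeR adjusted p = 0.16) or library 1 of Kat6a-cKO (0.26). The estimated free RNA would give from 70.5 to 100.4 CPM of Kcnq5 in these nuclei, more than was counted, so that the estimate is too high there and the gene could not be fitted after subtraction. The near-empty barcodes held 395 and 459 CPM of Kcnq5 in Control against 559 and 478 in Kat6a-cKO, the same order as in the nuclei. The part of free RNA in this change was not tested. In the other classes Kcnq5 stood at 1123 and 787 against 1206 and 1279 CPM in CA1, with a log2 fold change of 0.38, and at 797 and 808 against 932 and 937 CPM in inhibitory nuclei, with a change of 0.22 ± 0.06. Neither passed (edgeR adjusted p of 0.54 and 0.40). The CA1 change moved with single libraries, to 0.15 without library 2 of Control and to 0.66 without library 1 of Control.

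Among the Kv1 genes, Kcna1 missed the adjusted threshold in dentate granule nuclei and passed it in 3 of 13 other fits. In dentate granule nuclei Kcna1 stood at 34.3 and 36.1 against 24.5 and 29.3 CPM, a log2 fold change of -0.39 ± 0.10 (edgeR adjusted p = 0.17). It passed with the replicate number as a block (edgeR adjusted p = 0.048), with low genes kept in the fit (0.010) and without library 2 of Kat6a-cKO (0.011). Kcna2 stood there at 16.2 and 15.5 against 12.2 and 13.4 CPM. In inhibitory nuclei Kcna1 stood at 28.6 and 30.0 against 23.3 and 24.7 CPM. For the 5 families of at least 8 members the number of genes with a higher mean in Kat6a-cKO was counted in CA3, CA1, dentate granule and inhibitory nuclei, in this order. It was 0 of 4, 2 of 4, 0 of 4 and 1 of 4 for Kv1, 1 of 8, 6 of 8, 2 of 9 and 2 of 6 for silent Kv, 7 of 8, 4 of 8, 5 of 8 and 5 of 8 for EAG, ERG and ELK, 2 of 8, 5 of 9, 4 of 10 and 3 of 7 for inward rectifier and 7 of 9, 6 of 9, 7 of 10 and 6 of 8 for K2P genes. Over all genes tested, Kat6a-cKO had the higher mean for 48.8% in CA3, 49.1% in CA1, 50.8% in dentate granule and 50.3% in inhibitory nuclei. No difference between families was tested.

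In CA3 nuclei Kcnh7 had the smallest p of the potassium channel genes. It stood at 29.3 and 39.9 against 58.3 and 47.7 CPM, a log2 fold change of 0.61 ± 0.14 (edgeR adjusted p = 0.27). The change was 0.41 without library 1 of Control and 0.85 without library 2 of Control, and it passed the threshold without library 2 of Control (edgeR adjusted p = 2.12e-06) or library 2 of Kat6a-cKO (0.00473). The free RNA estimate for CA3 is as large as the Control level of Kcnh7, so the size of the change depends on how free RNA is treated. With the estimate subtracted, the fitted value of 11.36 (edgeR adjusted p = 0.16) is no measure of the change. The part of free RNA in it was not tested. Kcnh7 stood at 119 and 162 against 215 and 225 CPM in the low-scoring CA3 cluster. That cluster gave 302 and 598 against 786 and 751 UMIs of Kcnh7, from 99 and 152 against 170 and 155 nuclei. The largest CA3 cluster gave fewer, 121 and 107 against 174 and 171 UMIs, from 407 and 464 against 462 and 546 nuclei. Kcnh7 stood there at 10.6 and 9.02 against 15.7 and 12.8 CPM, below the estimate, which is thus too high there. The part of the low-scoring cluster in the change was not tested. In the cluster led by Kcnq5 the genotypes overlapped for Kcnh7, at 19.0 and 15.7 against 26.4 and 14.98 CPM. Kcng3 stood at 7.13 and 10.1 against 13.6 and 13.7 CPM, and its log2 fold change ran from 0.43 to 0.94 with 1 library left out. Kcnc2, the Kv3 gene with a high CA3 level, stood at 1301 and 1235 against 1087 and 1114 CPM, a log2 fold change of -0.20 ± 0.07 (edgeR adjusted p = 0.47). Kcng1 also lay lower in both Kat6a-cKO libraries, at 7.44 and 8.39 against 6.08 and 5.67 CPM, while Kcnk9, Kcnj12 and Kcnk7 lay higher from means under 10 CPM.

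In CA1 nuclei Kcnh1 stood at 82.7 and 104 against 130.3 and 113 CPM, a log2 fold change of 0.38 ± 0.12 (edgeR adjusted p = 0.45), which was 0.22 without library 1 of Control and 0.56 without library 2 of Control. Kcnn3, the SK3 gene, stood at 33.5 and 45.3 against 55.6 and 47.7 CPM, and Kcnh5 at 52.7 and 56.6 against 61.7 and 64.9 CPM. The log2 fold change of Kcnn3 ran from 0.19 to 0.63 with 1 library left out. Kcns2 lay lower and Kcna6 and Kcnk13 higher in both Kat6a-cKO libraries, all from under 6 CPM. In dentate granule nuclei Kcng1 lay lower in both Kat6a-cKO libraries, with a log2 fold change of -0.29 that was -0.39 without library 1 of Control and -0.19 without library 2 of Control, and Kcnmb2, Kcnj16 and Kcns1 had means under 10 CPM. In inhibitory nuclei Kcnh1 stood at 175 and 163 against 209 and 193 CPM and Kcnj3 at 649.7 and 686 against 776 and 733 CPM. Kcnip4 stood at 3229 and 2445 against 2344 and 2257 CPM there, a log2 fold change of -0.30 ± 0.10 (edgeR adjusted p = 0.55), where library 2 of Control lay nearer to the Kat6a-cKO libraries than to library 1 of Control. The change was -0.09 without library 1 of Control and -0.49 without library 2 of Control, and it passed without library 2 of Control (edgeR adjusted p = 0.013) or library 1 of Kat6a-cKO (0.0055). Kcna2, Kcnj12 and Kcnn2 completed the 8 genes of smallest p in inhibitory nuclei. In OPC Kcnb2 stood at 389 and 422 against 538 and 537 CPM, a log2 fold change of 0.41 ± 0.11 (edgeR adjusted p = 0.22). The near-empty barcodes held 260.4 and 325 CPM of Kcnb2 in Control against 341 and 353 in Kat6a-cKO, so Kat6a-cKO lay above Control there too. The part of free RNA in the OPC values was not tested. Kcnip3 stood at 292 and 204 against 192 and 136 CPM in OPC.

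Of 18 partner genes of these channels, such as Kvβ subunits, DPP proteins and axonal anchors, 0 passed the adjusted threshold in any class by edgeR. From 9 in astrocytes to 15 in dentate granule nuclei were tested, and at an unadjusted p of 0.05 the count was 1 in CA1, dentate granule, astrocyte, oligodendrocyte and OPC nuclei and 0 in CA3 and inhibitory nuclei. Dpp10, which modifies Kv4 gating, was the CA1 gene, at 104 and 120 CPM in Control against 436 and 199 in Kat6a-cKO, a log2 fold change of 1.50 ± 0.31 (edgeR adjusted p = 0.22). Its level in the Gm12128 cluster was 731 and 838 against 1706 and 1427 CPM, and in the cluster led by B230110G15Rik 17.0 and 13.6 against 23.7 and 19.3 CPM. Library 1 of Kat6a-cKO held the largest share of the Gm12128 cluster. The Dpp10 change was 1.10 without that cluster (edgeR adjusted p = 0.015) and 0.83 without library 1 of Kat6a-cKO (edgeR adjusted p = 0.0019).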

How the data were processed

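Raw UMI counts per barcode and gene were deposited by the authors as whole numbers, for all barcodes. Per the submitters' processing notes the build was mm10 and Seurat 4.0.1 was used. The aligner, the annotation and the strand of counting are not given in the sources used here, so reads of a gene and of a gene overlapping it (38 of the 87 members with a position have one) cannot be told apart. Barcodes with at least 5000 UMIs were taken as nuclei. Scrublet (in scanpy 1.11.5, expected doublet share 0.06) marked 243 to 298 doublets a library, which were removed. Nuclei were scaled to 10000 UMIs, reduced to 30 components of 2000 variable genes and clustered by Leiden (leidenalg 0.10.2, resolution 1), with 154 genes left out. Clusters were named after the class whose markers had the highest mean log2 fold over other nuclei, given that 50% and 3 or more of them were raised 2-fold or more. A cluster stayed unnamed where its 10 leading genes held more markers of another class (the cluster led by Dcn) or it had under 20 nuclei, and a glial one where it lay above 50% of the median UMI count of its library or also passed for a neuronal class. These thresholds were set with the clusters in view.

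Counts were summed per library and class, with at least 30 nuclei in each library, and compared by edgeR 4.0.16 (TMM, filterByExpr, quasi-likelihood test, Benjamini-Hochberg adjustment over all genes tested, threshold 0.05) in R 4.3.3. Differences of changes between classes came from an interaction term, class by genotype, with the library as a block. The SE is the log2 fold change divided by the root of F. DESeq2 1.42.0, other filters, the removal of each library and further settings were alternatives. The code was checked on simulated counts. Free RNA was estimated from barcodes of 20 to 100 UMIs, scaled in neurons by the oligodendrocyte markers counted there. Replicate libraries differed by more than counting noise, and counting error is not in the CPM. Named are the called members, the 8 of smallest p in each neuronal class, per class the 3 of at least 20 CPM most above the next class, and members of known roles. Other members named were chosen after their values were seen. Some members are not reported here. Members and lists were chosen with earlier results of these data known. Symbols were matched to 55154 of 55422 IDs and positions are of GENCODE M21 (GRCm38).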

Additional observations from a re-analysis of the deposited data

Results flagged for a closer look

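The change of Kcnk2 differed between groups of nuclei. CA1 minus dentate granule was -0.72 ± 0.08 on the log2 scale (edgeR interaction test, adjusted p = 0.028), with Kcnk2 lower in both Kat6a-cKO libraries in CA1 and higher in both in dentate granule nuclei. Neither change passed the adjusted threshold within its own class by edgeR, and DESeq2 called the CA1 change (adjusted p = 0.049).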

How the results depend on the processing

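With 2 libraries a genotype, the counts of potassium channel genes called moved with the setting, and a missed threshold does not show that a gene did not differ. In place of 0 genes, DESeq2 called 1 in CA3, 1 in CA1 and 1 in dentate granule nuclei. Without a filter on low counts 3 were called in CA3 (all genes 1.10%), 6 in CA1 (2.02%), 3 in dentate granule (2.06%) and 1 in inhibitory nuclei (0.538%). For the differences of changes it was 9 for CA3 and CA1, in place of 0 (all genes 0.757%). For CA3 and dentate granule it was 2, in place of 0 (0.298%), and for CA1 and dentate granule 11, in place of 1 (1.11%). That filter also moved the count over all genes, in CA3 from 2 to 300 and in CA1 from 12 to 566. Dentate granule nuclei gave 1 (Kcnq5) at a minimum of 10000 UMIs (all genes 0.380%) and 1 (Kcnq5) with doublets kept (0.381%). OPC gave 1 with doublets kept (all genes 0.204%). The last alternatives were added after seeing the data. Leaving out the low-scoring clusters gave 3 for CA3 and CA1 (all genes 0.547%) and 1 for CA3 and dentate granule (0.369%). Adding the largest unnamed cluster to CA1 gave 0 (all genes 0.0118%). Without the low-scoring clusters the Kcnk2 difference between CA3 and dentate granule nuclei turned from 0.10 to -0.019, and the cause was not tested.

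The lone library of a group is assumed to vary like the other group. Leaving out 1 library gave from 0 to 4 called in CA3 (4 without library 2 of Control, where 1.63% of all genes were called), 0 to 7 in CA1 (7 without library 2 of Kat6a-cKO, all genes 3.45%), 0 to 4 in dentate granule (4 without library 2 of Kat6a-cKO, 2.54%), 0 to 1 in inhibitory (1 without library 2 of Control, 0.294%, or library 1 of Kat6a-cKO, 0.652%), 0 in astrocyte, 0 to 3 in oligodendrocyte (3 without library 1 of Control, 0.576%) and 0 to 1 in OPC nuclei (1 without library 2 of Control, 0.200%, or library 1 of Kat6a-cKO, 0.120%). For the differences it gave 1 to 5 (CA3 and CA1, 5 without library 2 of Kat6a-cKO, 1.38%), 0 to 2 (CA3 and dentate granule, 2 without library 2 of Control, 0.647%) and 1 to 7 (CA1 and dentate granule, 7 without library 2 of Control, 0.800%).

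The replicate numbers are not said to pair libraries, and the deviations of same-numbered libraries correlated over genes at r = 0.13 in CA3, 0.14 in CA1, 0.16 in dentate granule, 0.088 in inhibitory, 0.19 in astrocyte, 0.0023 in oligodendrocyte and -0.013 in OPC nuclei. With the replicate number as a block, 2 genes were called in dentate granule nuclei (Kcna1 and Kcnq5, all genes 1.56% against 0.404% without the block). In the other 6 classes 0 were called (all genes up to 0.682%, in CA3). Over 34 named pairs of gene and class, 452 of 452 alternative values kept their direction, and most missed the threshold. The pairs were the potassium channel genes of smallest p in each neuronal class, and Dpp10. Those of smallest p were chosen by their change in the same libraries, so a kept direction was largely fixed beforehand. Differences of changes between classes are not in this count. In 15 of the 34 pairs leaving out 1 library moved the log2 fold change by over 1.5 times. Free RNA was not subtracted in glia, where its estimate ran from 90.5% to its cap of 100%. Glia also held too few nuclei at 10000 UMIs, so these settings were not run.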

Other observations

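The near-empty barcodes, which hold free RNA, carried potassium channel RNA that the named classes nearly lacked. Kcnn4, the IK channel gene, stood there at 29.0 and 20.0 CPM in Control (28 and 17 UMIs) and at 15.3 and 14.4 CPM in Kat6a-cKO (12 UMIs each). The highest single library of any named class had 1.53 CPM of Kcnn4 (astrocytes, library 1 of Kat6a-cKO). Kcne2, an auxiliary subunit, stood at 16.6 and 10.6 CPM in the near-empty barcodes of Control (16 and 9 UMIs) and at 14.0 and 9.61 CPM in those of Kat6a-cKO (11 and 8 UMIs), against at most 4.03 CPM in a library of a named class. The source of this RNA was not tested.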
